A study of Drosophila melanogaster and Drosophila simulans with 21 samples.

Results

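The genes described here are those whose level differed between 2 fly species while their hybrid daughters stood at the level of the paternal species, Drosophila simulans. Members were chosen by measured values: the mean log2 ratio of each pair of RNAs had to be at least 0.5 in size between the parental species (1.41-fold), at most 0.2 between hybrid and D. simulans (1.15-fold), and over 0.2 between hybrid and D. melanogaster. This rule found 92 genes or unnamed probe positions among 4753 with at least 4 values in every pair, which is 1.94%. Of these, 21 carried 1 gene symbol and 71 were positions with no single symbol. One further gene that met the rule was left out by it. Because the rule used all 3 pairs of RNAs, every difference between RNAs given below is a description of the members and not a test.

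RNA came from whole adult females of the Canton S strain of D. melanogaster, of the Sim-1 strain of D. simulans, and of hybrid daughters from Canton S females mated to Sim-1 males. The labels state that stocks lived at 25 C, that 7 to 8 flies of each sex were crossed at 18 C, and that virgin parental females and hybrid females were then held for 5 to 6 days at room temperature before freezing. Each cross drew on 2 cohorts, but the extractions of a strain were combined into 1 pool, so repeated arrays show technical spread only, and a difference between strains cannot be told apart from one between their pools. Spotted cDNA arrays compared 2 RNAs at a time, with 6 arrays for each of the 3 pairs (3 in each channel orientation) and 3 arrays that carried 1 RNA against itself. In whole bodies, a smaller organ and less RNA per cell cannot be told apart, and a ratio gives no level for marker genes of a tissue. The same probes read both species, and any effect of sequence differences between the species on the ratios was not tested.

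In an F1 hybrid the alleles of both species share a nucleus and meet the same regulatory proteins. A hybrid level equal to that of a parent is commonly described as dominance of that parent's expression, in contrast to additive expression, where the hybrid lies between the parents. In this cross the egg cytoplasm and the mitochondria come from the D. melanogaster mother, and D. simulans is the father's species.

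The labels do not say which channel was the numerator. Ratios are read as channel 1 over channel 2, and in the opposite reading every sign given here turns, while membership, sizes and totals stay. Values on arrays with exchanged channels ran opposite to each other, with correlations from -0.93 to -0.48 across genes and positions, which are not independent. The hybrid against D. melanogaster should equal the sum of the other 2 ratios, and over all genes and positions the departure from that sum had an SD of 0.19.

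Of the 92 members, 42 were higher and 50 lower in D. simulans than in D. melanogaster. The 42 had log2 values from 0.50 to 3.08 with a median of 0.63 between the parents, and a median of 0.73 for the hybrid against D. melanogaster. The 50 lay between -3.45 and -0.50 with a median of -0.77, and the hybrid's median against D. melanogaster was -0.79. Most members thus differed by less than 2-fold, and 13 reached 2-fold and 2 reached 4-fold. Among the 21 named genes, 7 were higher and 14 lower in D. simulans, and 2 of them reached 2-fold.

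**Figure D1:**
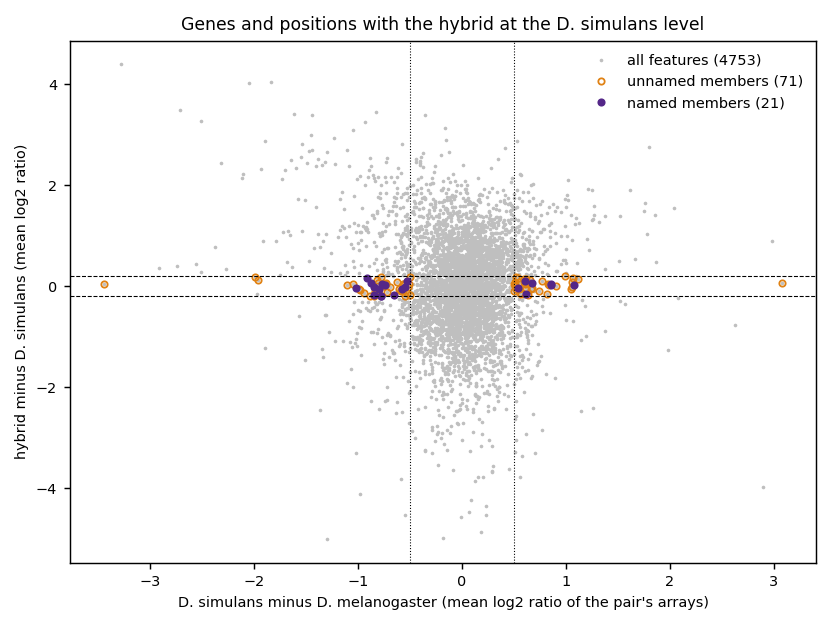
Mean log2 ratio of D. simulans minus D. melanogaster (horizontal axis) against hybrid minus D. simulans (vertical axis) for all 4753 genes and positions, with 71 unnamed members as open circles and 21 named members as filled circles. Dotted lines mark 0.5 on either side of 0, dashed lines mark 0.2, and the members form 2 strips from -3.45 to -0.50 and from 0.50 to 3.08.

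A parental difference of at least 0.5 was found for 808 genes and positions, of which the members were 11.4%. The hybrid stood at the D. melanogaster level, by the mirrored rule, for 75 (9.28%), and between the parents and over 0.2 from both for 84 (10.4%). It lay outside the parental range on the D. simulans side for 344 (42.6%) and on the D. melanogaster side for 210 (26%), and within 0.2 of both parents for 2. Members were higher in D. simulans in 45.7%, near the 45.2% of all 808. The share was 37.3% at the D. melanogaster level, 21.4% in between, 61.1% beyond D. simulans and 31% beyond D. melanogaster. With the channels read the other way, these are the shares lower in D. simulans. The hybrid was within 0.2 of D. simulans for 11.8% of the 808 with a parental difference of at least 0.5, and for 17.9% of the other 3945. These shares are counts over genes from the same arrays and were not tested.

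A group of 12 unnamed members stood apart from the rest. Position identifiers consist of 3 numbers, and these 12 have 19 or 20 as the second, which runs from 1 to 20. Of all 156 genes and positions with such a number 7.69% were members, against 1.74% of the other 4597. All 12 were higher in D. simulans over all arrays, from 0.50 to 1.11 with a median of 0.66. Their values differed between 2 sets of arrays. The titles of the arrays bear numbers from 1 to 8 or from 14 to 18, and the median parental difference was 2.13 over the 11 positions with a value on the first set and -0.57 over the 11 with a value on the second. Of the 10 with a value on both, 9 had opposite signs. The hybrid against D. simulans likewise had a median of 0.43 on the first set and -0.44 on the second. These sets hold 4 and 2 arrays of this pair. Over all arrays the median was 0.07. In no pair did a set hold equal numbers of both channel orientations. Both arrays of hybrid and D. simulans in the second set carry the hybrid in channel 1. Set and orientation thus cannot be told apart here.

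The arrays of 1 RNA against itself, which the rule did not use, also set these positions apart. With D. simulans RNA in both channels, 11 of them had values from -2.17 to -0.73 although the RNA was the same on both sides. With D. melanogaster RNA 10 of them ran from -1.56 to 0.03 with a median of -1.15, and with hybrid RNA their median was 0.52. The hybrid array has title number 8, and those of D. melanogaster and D. simulans have 14. The RNA and the title set thus cannot be told apart here. Over all members, 14 of 92 (15.2%) exceeded 0.5 in size on at least 1 of these 3 arrays, against 4.67% of all 4753, 5.33% of those at the D. melanogaster level and 5.95% of those in between. Of the 14, 11 belong to the 12 positions, 13 were higher in D. simulans and 1 was named, lncRNA:CR43337. Leaving out the 14 gave 78 members, 29 higher and 49 lower, and leaving out the 12 gave 80, 30 higher and 50 lower. The part of these spots in the members' values was not tested. All 18 values were present for 67.4% of the members and for 80.8% of all genes and positions. What these positions carry is not given in the sources used here.

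**Figure D2:**
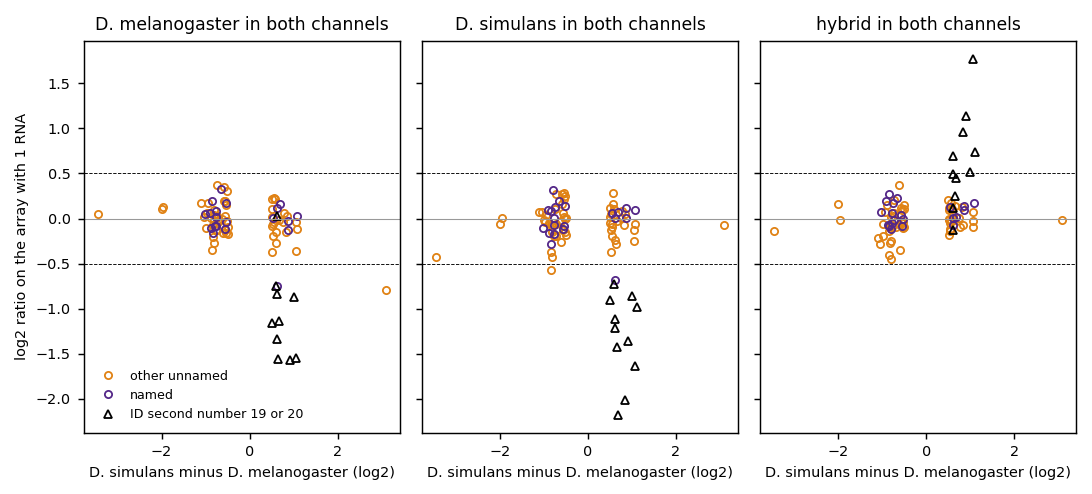
Log2 ratios of the members on the 3 arrays with 1 RNA in both channels (vertical axis) against the log2 difference between the parents (horizontal axis), with dashed lines at 0.5 on either side of 0. Triangles mark the 12 positions with 19 or 20 as the second number of the identifier. They lie below -0.5 on the D. simulans array in all 11 cases with a value. On the D. melanogaster array they are mostly below 0 and on the hybrid array mostly above 0. The hybrid array has title number 8, and those of D. melanogaster and D. simulans have 14.

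A bias between channels was estimated in the model over all 18 arrays. The term for the channel comes from the difference between orientations, which means over equal numbers of both orientations do not hold. This is so for the 62 members with all 18 values and not in general for the other 30, whose means can hold part of it. The term passed an adjusted p of 0.05 in limma's moderated test for 7 of 92 members (7.61%), against 9.24% of all genes and positions. With all 18 values it passed for 6 of 62 members (9.68%), against 9.56% of 3840. Prosbeta7 was a named one among them, at 0.17 ± 0.048 (SE, adjusted p = 0.0325, limma), and CG7536, which has 5 parental values, was the other named member to pass, at 0.13 ± 0.035 (SE). No member passed with arrays scaled to a common spread, where 4.46% of all genes and positions did. There 10 members had an unadjusted p under 0.05 (limma), and both named calls were lost. The count of 7 became 11 with deposited medians, where 10.1% of all genes and positions passed. With the title number as a random block it was 4, against 5.4% of all. Leaving out single arrays gave 4 to 12, and the share over all moved too. The count was 12 of 88 members fitted without array 2 of the parental pair, against 13.4% of all. It was 11 of 91 without array 2 of D. melanogaster and hybrid, against 13.8% of all. Counts of 4 came without parental array 6, D. melanogaster and hybrid arrays 1 or 6, or D. simulans and hybrid arrays 5 or 6. There 5.0% to 6.9% of all passed.

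Of the 21 named members, 20 had all parental arrays on 1 side of 0, and 17 had all arrays of hybrid minus D. melanogaster so. Over all genes and positions the shares were 42.2% and 70.2%. The rule chose members for both differences, so such statements on single genes below are descriptions. The named members are described by role, and the grouping was made with their signs known. Those that act with small RNAs come first. kipf (CG2678, arm 3R of the Release 6 plus ISO1 MT assembly) encodes Kipferl, a zinc finger protein that guides the chromatin protein Rhino to piRNA source loci in the ovary. Between the parents, its log2 ratio over 6 arrays ran from -1.04 to -0.66 with a median of -0.81 and a mean of -0.84 ± 0.17 (SD). On 6 arrays, hybrid minus D. melanogaster lay between -1.13 and -0.65 (median -0.82, mean -0.85 ± 0.16). Those of hybrid minus D. simulans lay between -0.30 and 0.29 (median -0.07, mean -0.01 ± 0.23, n = 6). All arrays with D. melanogaster RNA gave kipf ratios below 0 for D. simulans and for the hybrid, while arrays without it fell evenly on both sides of 0. The title sets gave 0.098 (numbers 1 to 8) and -0.22 (14 to 18) for hybrid minus D. simulans.

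Hen1 (CG12367, arm 2R) encodes the methyltransferase that protects the ends of piRNAs and siRNAs. The 5 arrays of D. simulans against D. melanogaster gave log2 ratios from -1.06 to -0.54, with a median of -0.80 and a mean of -0.79 ± 0.19 (SD). Against D. melanogaster, the hybrid read between -1.46 and -0.68, with a median of -1.02 and a mean of -1.05 ± 0.27 (n = 6). Against D. simulans, the hybrid read between -0.50 and 0.74, with a median of -0.11 and a mean of -0.06 ± 0.47 (n = 6). Every array with D. melanogaster RNA was again on the low side. The hybrid ratio to D. simulans was 0.16 on the 4 arrays of the first title set and -0.49 on the 2 of the second. Its mean near 0 thus joins arrays of opposite sign. Those 2 arrays carry the hybrid in channel 1, so orientation was not balanced between the sets, and its part was not tested. A list of germline and meiosis genes had 5 measured genes (Phf7, mei-P26, ovo, pch2 and zuc), of which 0 were members, and 1 of them, ovo, was within 0.2 of D. simulans.

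Next come orion, Pvf1, SCAR and dpr6, with roles in signalling, the actin skeleton and cell contact. orion (CG2206, X) encodes a secreted, chemokine-like protein by which neurons attract the glia that clear pruned axons, and it had the largest negative parental difference among the named members (2.03-fold). Between the parents, its log2 ratio over 6 arrays ran from -1.23 to -0.61 with a median of -1.09 and a mean of -1.02 ± 0.22 (SD). Hybrid against D. melanogaster gave -1.12 to -0.88 on 6 arrays, with a median of -0.96 and a mean of -0.97 ± 0.09. Hybrid against D. simulans gave -0.33 to 0.11 on 5 arrays, with a median of 0.04 and a mean of -0.04 ± 0.18. All arrays with D. melanogaster were below 0, and those of hybrid and D. simulans lay on both sides of it. In the model over all 18 arrays the hybrid differed from D. simulans by 0.003 with a 95% interval from -0.14 to 0.14. Of the 10 measured genes of the neural and synaptic list, orion alone was a member, and Shab and futsch were also within 0.2 of D. simulans but without a parental difference of 0.5.

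Pvf1 (CG7103, X) encodes a ligand of the PDGF and VEGF receptor homologue of flies. The 6 arrays of D. simulans against D. melanogaster gave log2 ratios from -0.88 to -0.69, with a median of -0.76 and a mean of -0.78 ± 0.08 (SD). On 6 arrays, hybrid minus D. melanogaster lay between -1.39 and -0.63 (median -0.94, mean -0.95 ± 0.31). Those of hybrid minus D. simulans lay between -0.37 and 0.09 (median -0.25, mean -0.19 ± 0.17, n = 6). The parental arrays were the most tightly grouped of the described genes after out, and 5 of 6 arrays put the hybrid slightly below D. simulans. Its model interval for hybrid minus D. simulans ran from -0.34 to -0.033, on 1 side of 0. Pvf1 thus lay close to the edge of the rule.

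SCAR (CG4636, arm 2L) encodes the activator of the Arp2/3 complex that starts branched actin filaments. Between the parents, its log2 ratio over 6 arrays ran from -1.12 to -0.79 with a median of -0.90 and a mean of -0.91 ± 0.12 (SD). Against D. melanogaster, the hybrid read between -1.10 and -0.19, with a median of -0.37 and a mean of -0.47 ± 0.33 (n = 6). Against D. simulans, the hybrid read between -0.40 and 0.55, with a median of 0.21 and a mean of 0.17 ± 0.37 (n = 6). The hybrid's distance from D. melanogaster was about 51.1% of the parental one, and the 3 pairs missed closure by 0.28. SCAR met the rule by its direct means, whereas the model put the hybrid above D. simulans by 0.26, with an interval from 0.054 to 0.47. The title sets gave -0.02 and 0.55.

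dpr6 (CG14162, arm 3L), a cell surface protein of the immunoglobulin superfamily in neurons, had a parental log2 value of -0.57 ± 0.11 (SD, n = 6). Hybrid minus D. melanogaster was -0.44 ± 0.36 (n = 6) and hybrid minus D. simulans was -0.06 ± 0.30 (n = 5). The parental arrays were all below 0, whereas 1 array put the hybrid above D. melanogaster.

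**Figure D3:**
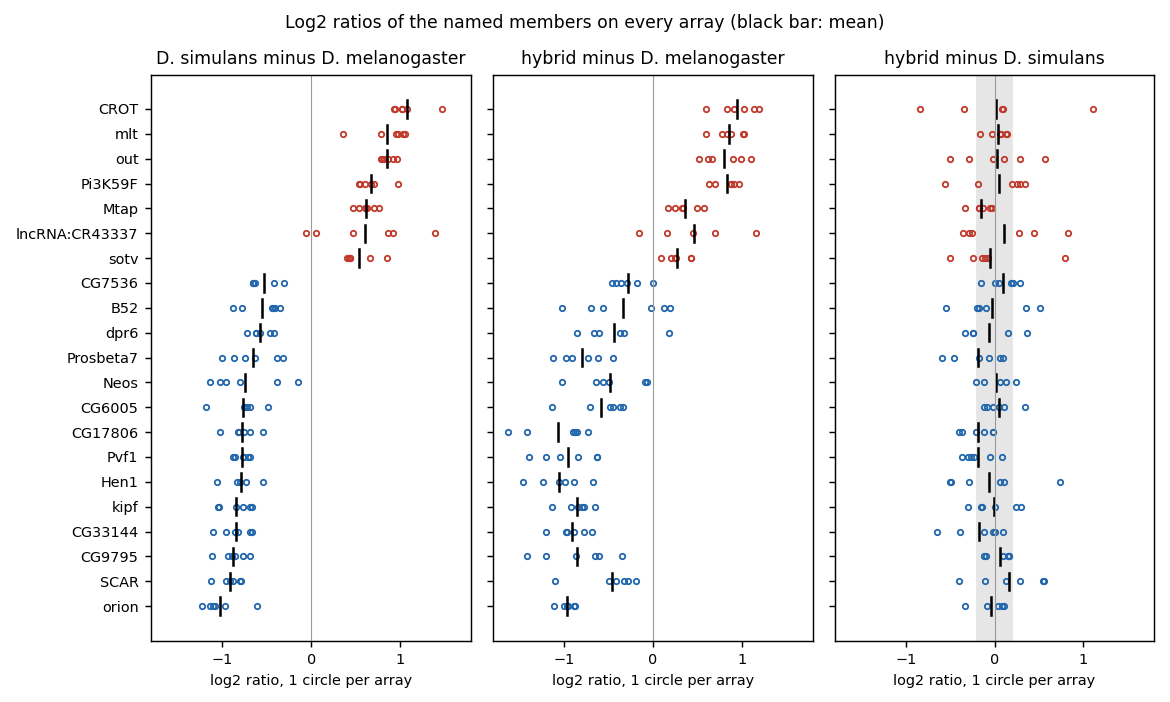
Log2 ratio of every array (circles) and the mean (black bar) for the 21 named members in the 3 pairs, with the range of 0.2 on either side of 0 shaded for hybrid minus D. simulans. Genes higher in D. simulans are red and genes lower are blue. Parental arrays lie on 1 side of 0 for 20 of the 21, the exception being lncRNA:CR43337, and for 42.2% of all genes and positions. The rule chose members for a parental difference, so this count is a description.

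CROT, out, mlt, Pi3K59F, Mtap and sotv encode enzymes, a transporter-like protein and a relative of a tubulin-folding factor. CROT (CG12428, arm 3R) encodes a carnitine acyltransferase for fatty acyl groups, and its parental difference was the largest among the named members (2.11-fold). The 6 arrays of D. simulans against D. melanogaster gave log2 ratios from 0.94 to 1.48, with a median of 1.02 and a mean of 1.08 ± 0.20 (SD). Hybrid against D. melanogaster gave 0.60 to 1.20 on 6 arrays, with a median of 0.97 and a mean of 0.95 ± 0.22. Hybrid against D. simulans gave -0.84 to 1.10 on 5 arrays, with a median of 0.09 and a mean of 0.02 ± 0.72. Both pairs with D. melanogaster gave CROT ratios above 0 on every array. The hybrid and D. simulans differed in both directions on single arrays, so the mean of 0.02 rests on values that cancel, and the model interval from -0.31 to 0.26 was wider than the rule's tolerance.

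out (CG8062, X) encodes outsiders, a member of the monocarboxylate transporter family known for its part in germ cell migration. Between the parents, its log2 ratio over 6 arrays ran from 0.78 to 0.97 with a median of 0.85 and a mean of 0.86 ± 0.07 (SD). On 6 arrays, hybrid minus D. melanogaster lay between 0.51 and 1.10 (median 0.78, mean 0.80 ± 0.23). Those of hybrid minus D. simulans lay between -0.50 and 0.56 (median 0.04, mean 0.03 ± 0.38, n = 6). Every array with D. melanogaster was on the high side, and the parental arrays had the smallest spread of all named members. The model placed the hybrid at -0.002 from D. simulans, with an interval from -0.17 to 0.16.

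mlt (CG12214, arm 2R) encodes mulet, a relative of tubulin-folding cofactor E. The 6 arrays of D. simulans against D. melanogaster gave log2 ratios from 0.35 to 1.05, with a median of 0.96 and a mean of 0.86 ± 0.26 (SD). Against D. melanogaster, the hybrid read between 0.60 and 1.03, with a median of 0.86 and a mean of 0.86 ± 0.16 (n = 6). Against D. simulans, the hybrid read between -0.16 and 0.14, with a median of 0.07 and a mean of 0.03 ± 0.11 (n = 6). The hybrid's distance from D. melanogaster was 99.7% of that of D. simulans, and the model interval against D. simulans ran from -0.12 to 0.16.

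The class III phosphatidylinositol 3-kinase gene Pi3K59F (CG5373, arm 2R), which acts in autophagy and endosomal traffic, stood at 0.68 ± 0.16 between the parents and 0.83 ± 0.13 for hybrid minus D. melanogaster (SD, n = 6 each). Its ratio of hybrid to D. simulans was 0.06 ± 0.36, with -0.07 on the first title set and 0.32 on the second. Mtap (CG4802, arm 2R), the methylthioadenosine phosphorylase of methionine salvage, stood at 0.62 ± 0.11 and 0.36 ± 0.15 (SD, n = 6 each). All 6 of its arrays put the hybrid below D. simulans, with a mean of -0.15 ± 0.11, which is the side of D. melanogaster. For Mtap the hybrid lay 58.3% of the way from D. melanogaster to D. simulans by direct means. The model interval for hybrid minus D. simulans ran from -0.30 to -0.072, on 1 side of 0. sotv (CG8433, arm 2R), which encodes a polymerase subunit of heparan sulfate, stood at 0.54 ± 0.18 and 0.28 ± 0.13, with hybrid minus D. simulans at -0.05 ± 0.44 (SD, n = 6 each). The hybrid lay 51.7% of the way from D. melanogaster to D. simulans by these direct means.

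A splicing gene and a proteasome gene were lower in D. simulans. B52 (CG10851, arm 3R) encodes an SR protein of pre-mRNA splicing. Between the parents, its log2 ratio over 6 arrays ran from -0.88 to -0.35 with a median of -0.44 and a mean of -0.55 ± 0.22 (SD). Hybrid against D. melanogaster gave -1.02 to 0.20 on 6 arrays, with a median of -0.29 and a mean of -0.33 ± 0.50. Hybrid against D. simulans gave -0.55 to 0.51 on 6 arrays, with a median of -0.14 and a mean of -0.03 ± 0.39. Only the parental pair had all arrays on 1 side of 0. On arrays with title numbers 1 to 8 the hybrid stood at -0.76 against D. melanogaster, and on those numbered 14 to 18 at 0.099, with the sign turned.

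Prosbeta7 (CG12000, arm 3R), a beta subunit of the 20S proteasome core, had a parental value of -0.66 ± 0.27 and -0.80 ± 0.25 for hybrid minus D. melanogaster (SD, n = 6 each). Its hybrid minus D. simulans mean of -0.19 ± 0.28 lay just within the rule. Among the 6 measured proteasome genes it was the only member and the only one with a parental difference of 0.5. Rpn1, Rpn2 and Rpt5 had parental log2 values of 0.11, 0.03 and -0.03, and hybrid minus D. simulans values of -0.90, -0.75 and -0.66. Rpn6 stood at -0.14 between the parents and 0.01 against D. simulans, and Prosbeta4R2 at 0.15 and 0.50.

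Neos (CG8614, arm 3L) lay on the low side. The 6 arrays of D. simulans against D. melanogaster gave log2 ratios from -1.14 to -0.14, with a median of -0.88 and a mean of -0.74 ± 0.39 (SD). On 6 arrays, hybrid minus D. melanogaster lay between -1.03 and -0.07 (median -0.53, mean -0.48 ± 0.36). Those of hybrid minus D. simulans lay between -0.21 and 0.24 (median 0.06, mean 0.02 ± 0.18, n = 5). All arrays with D. melanogaster were below 0, and the title sets differed in size, with a parental value of -0.44 on the first and -1.04 on the second.

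CG9795 (arm 3R) had log2 values of -0.88 ± 0.15 between the parents, -0.85 ± 0.40 for hybrid minus D. melanogaster and 0.06 ± 0.13 for hybrid minus D. simulans (SD, n = 6 each). Its arrays ran from -1.11 to -0.68 with a median of -0.88 between the parents, from -1.41 to -0.35 with a median of -0.76 for hybrid minus D. melanogaster, and from -0.12 to 0.17 with a median of 0.12 for hybrid minus D. simulans. Every array with D. melanogaster RNA was below 0, and the hybrid and D. simulans overlapped. CG33144 (arm 2R) had values of -0.85 ± 0.16, -0.92 ± 0.18 and -0.18 ± 0.28 (n = 6 each). Its arrays ran from -1.10 to -0.67 with a median of -0.84, from -1.20 to -0.69 with a median of -0.93, and from -0.65 to 0.09 with a median of -0.06. The first 2 pairs lay wholly below 0, and the model placed the hybrid at -0.14 from D. simulans, with an interval from -0.28 to -0.002.

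Of the remaining genes, CG17806 (arm 3R) stood at -0.78 ± 0.16 between the parents and -0.19 ± 0.17 for hybrid minus D. simulans, below 0 on all 6 arrays of the latter. Its hybrid minus D. melanogaster value was -1.07 ± 0.37, which is 137.4% of the parental difference. The model interval for hybrid minus D. simulans ran from -0.39 to -0.05. CG6005 (arm 3R) stood at -0.76 ± 0.23 and 0.05 ± 0.17, and CG7536 (X) at -0.53 ± 0.16 (n = 5) and 0.10 ± 0.16 (n = 6). Hybrid minus D. melanogaster was -0.58 ± 0.30 for CG6005 and -0.28 ± 0.17 for CG7536 (SD, n = 6 each). For CG7536 the hybrid lay 53.0% of the way from D. melanogaster to D. simulans. Its model interval for hybrid minus D. simulans ran from 0.036 to 0.24. The long non-coding RNA gene lncRNA:CR43337 (arm 3L) stood at 0.61 ± 0.56 between the parents and 0.11 ± 0.48 for hybrid minus D. simulans. Its hybrid minus D. melanogaster value was 0.47 ± 0.50 (SD, n = 5). With D. melanogaster or D. simulans RNA in both channels it read -0.75 and -0.68, and with hybrid RNA -0.07. Its parental ratio was thus smaller in size than its ratio with D. melanogaster or D. simulans RNA in both channels, and larger than that with hybrid RNA.

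The 2 largest parental differences among the members belonged to unnamed positions. The lower one stood at -3.45 ± 0.39 between the parents (SD, n = 6), -3.24 ± 0.58 for hybrid minus D. melanogaster (n = 6) and 0.04 ± 0.26 for hybrid minus D. simulans (n = 5). It was -3.34 on the first title set and -3.55 on the second. The higher one stood at 3.08 ± 0.52 (n = 5), 2.83 ± 0.81 (n = 6) and 0.06 ± 0.14 (n = 5), with 2.76 and 3.30 on the title sets. Its value with D. melanogaster RNA in both channels was -0.79. Both parental differences exceeded the spread between their arrays, but the positions were picked for the size of these differences, so this is a description.

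A linear model over all 18 arrays described the spread of the hybrid around D. simulans. The members were chosen for small values of this difference on the same arrays, so its intervals are a description and do not support that the levels were equal. The 95% interval of hybrid minus D. simulans had a median reach of 0.18 to either side for the members, close to the tolerance of the rule, and 0.18 over all genes and positions. The interval lay wholly within 0.2 of 0 for 14 of 92 members (15.2%), 4 of them named: orion, mlt, out and kipf, and for 2.99% of all genes and positions. It held 0 for 77 members, 14 of them named.

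In the same model, 81 members passed an adjusted p of 0.05 between the parents, where 46.8% of all genes and positions passed, and 84 passed for hybrid minus D. melanogaster, where 83.8% did. For hybrid minus D. simulans 14 members passed, among them SCAR, Pvf1, CG17806, Prosbeta7, Mtap and CG7536, where 82.2% of all did. Nothing is read from these counts, since the rule used the same contrasts. The 3 pairs missed closure by a median of 0.14 for the members and 0.12 for all, and by over 0.2 in 28 members (30.4%, against 24.7% of all).

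**Figure D4:**
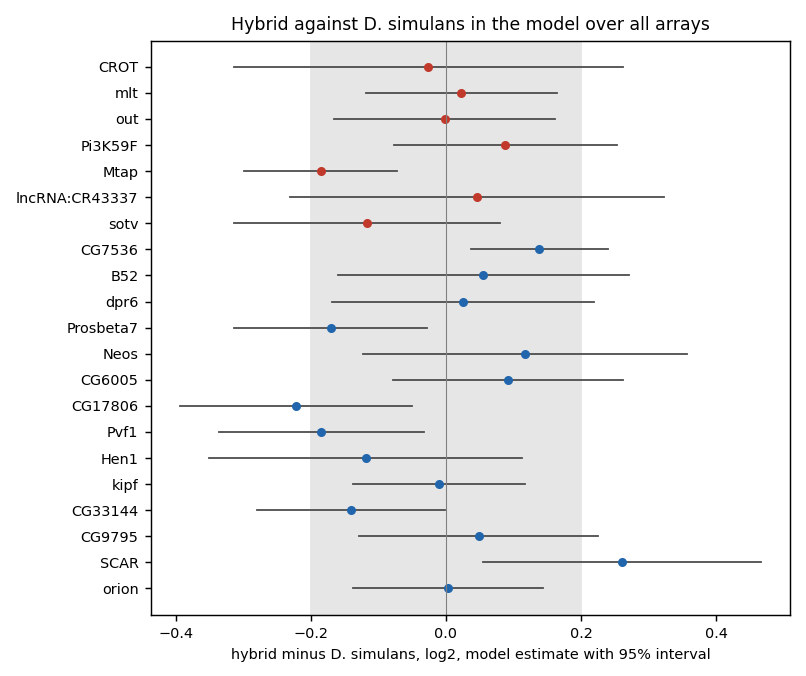
Model estimate of hybrid minus D. simulans on the log2 scale (points) with its 95% interval (lines) for the 21 named members, red where D. simulans was higher than D. melanogaster and blue where lower. The shaded range is 0.2 on either side of 0, and only orion, mlt, out and kipf have intervals wholly within it.

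Single arrays and title sets moved genes across the limits of the rule. Leaving out each of the 18 arrays in turn gave 81 to 101 genes and positions, of which 71 to 92 were members, and 38 of the 92 members, 11 of them named, met the rule every time. Within the title sets all 21 named members kept the sign of the parental difference, and 16 kept a size of at least 0.5 in both. The hybrid was within 0.2 of D. simulans for 15 named members on the first set, 13 on the second and 9 on both. For this pair the first set has 4 arrays and the second 2, and those 2 carry the hybrid in channel 1. Set and orientation thus cannot be told apart in these counts. Opposite parental signs in the 2 sets were found for 9 of 89 members, all 9 among the positions with 19 or 20 as the second number, and for 29 of 797 genes and positions (3.64%) with a parental difference of at least 0.5. The title numbers are labels whose meaning is not stated.

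**Figure D5:**
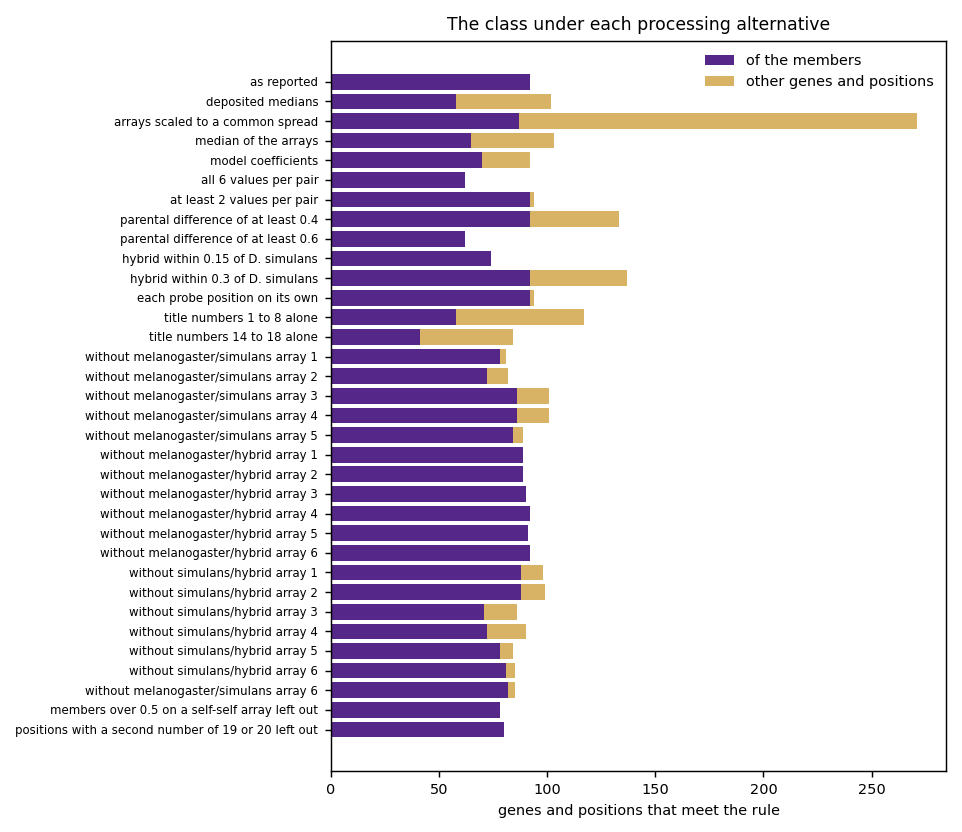
Number of genes and positions that met the rule (horizontal axis) under each processing alternative, with the part that belongs to the 92 members in purple and others in tan. Array numbers follow the order of deposition within a pair, and the bar for arrays scaled to a common spread reaches 271.

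The named members were spread over the chromosome arms, with 4 on X (19.1%), 1 on 2L, 6 on 2R (28.6%), 3 on 3L and 7 on 3R (33.3%). Named genes tested fell at 18.4% on X, 17.2% on 2L, 18.3% on 2R, 20.1% on 3L and 24.9% on 3R. Named members higher in D. simulans numbered 1 on X, 0 on 2L, 4 on 2R, 1 on 3L and 1 on 3R. A difference between arms was not tested. No named members were immediate neighbours in the gene table: the closest, out and Pvf1 on X, lie 55 genes apart and had opposite signs. Of 26 lists of pathway and tissue genes, 25 had a measured gene and 2 held a member, orion and Prosbeta7.

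Genes just outside the rule showed how the limits fell. At the parental limit, CG7536, sotv and B52 lay inside at -0.53, 0.54 and -0.55, and CG5880, CG31231 and CG13458 outside at 0.49, 0.49 and 0.48. At the limit for hybrid minus D. simulans, Pvf1, CG17806 and Prosbeta7 lay inside at -0.19 each. Fs(2)Ket, the importin beta gene, lay outside at 0.21, CG2247 at -0.24 and Pomp, the proteasome maturation gene, at -0.25. By distance to the members' median in the 2 ratios against D. melanogaster, the most alike named genes that were no members were dyl, Bili and CG13458 on the high side and ctp, l(1)G0289 and p53 on the low side. The dynein light chain gene ctp, for example, stood at -0.77 between the parents, -0.82 for hybrid minus D. melanogaster and -0.34 for hybrid minus D. simulans.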

How the data were processed

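RNA of whole females was measured on 21 spotted cDNA arrays, 18 with 2 RNAs and 3 with the same RNA in both channels. The authors deposited 1 linear ratio per probe position and array, with a median of 0.853 to 1.11 per array. How spots were scanned, corrected, normalized and filtered is not stated in the labels or files, and no intensities of single channels were used, so signal over background is unknown and the number of arrays limits the precision. Every array held values for 4657 to 4946 of 6101 positions.

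Ratios were put on the log2 scale, each array's median was subtracted, signs were turned by the channel labels, and positions of a gene were averaged. The platform annotation gave 1 symbol for 1943 positions and several for 67. Symbols were updated through the Release 6 plus ISO1 MT gene table, which held all 1384 named genes tested. It gave locus tags, chromosome arms and gene order, and no coordinates are printed because the files name no build. No sequences of probes were used here.

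A linear model across all genes and positions (limma 3.58.1, R 4.3.3) took D. melanogaster as the reference and had terms for D. simulans, the hybrid and the channel, with two-sided moderated tests, Benjamini-Hochberg adjustment and a threshold of 0.05. It was tested on simulated data. Means and SDs are over arrays of 1 pool per strain, so p-values measure the spread between arrays only. Replicate numbers follow the order of deposition. Members, gene lists and tests were chosen with earlier results of these data known. Every named member is given, and the 10 with the largest parental difference plus the 4 closest to D. simulans are described by array. Alternatives were other centring, scaling, averaging, thresholds, title sets and leaving out each array.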

Additional observations from a re-analysis of the deposited data

Results flagged for a closer look

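A single array lay far from the other 5 of its pair in 3 of 63 groups of arrays for named members, where chance alone would single out about 1 in 20 groups. For CROT between the parents, array 2 of that pair read 1.48, and the others ran from 0.94 to 1.08. For SCAR in hybrid minus D. melanogaster, array 2 of the pair read -1.10, against -0.49 to -0.19 on the others. For sotv in hybrid minus D. simulans, array 3 of the pair read 0.80, against -0.51 to -0.07. Without these arrays the means were 1.00 for CROT, -0.34 for SCAR and -0.21 for sotv.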

How the results depend on the processing

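With deposited medians 102 genes and positions met the rule, but 58 of the 92 members remained. Scaling arrays to a common spread, which by construction widens the parental arrays and narrows those with hybrid RNA, gave 271, with 130 higher and 141 lower. Members that remained were 58 on title numbers 1 to 8 alone and 41 on 14 to 18 alone. On the latter 84 genes and positions met the rule, 26 of them higher in D. simulans. Of all genes and positions that met each changed rule, 23 were higher in D. simulans with all 6 values per pair. The count higher was 65 at a parental limit of 0.4 and 27 at 0.6. With the hybrid within 0.3 of D. simulans, 77 were lower. These limits change the count by construction. Model coefficients gave 92 genes and positions, 70 of them members, and the median of the arrays 103, 65 of them members. Kept without any single array and under deposited medians, common spread, array medians and model coefficients were 26 members, 7 of them named: CG6005, CG9795, Neos, kipf, mlt, orion and out.

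Members whose channel term passed numbered 11 with deposited medians (limma), where 10.1% of all genes and positions passed. With scaled arrays the number was 0, against 4.46% of all, and 10 members had an unadjusted p under 0.05 (limma). With the title number as a random replicate block there were 4, against 5.4% of all. With single arrays left out, the lowest count was 4, where 5.0% to 6.9% of all passed. It came without parental array 6, D. melanogaster and hybrid arrays 1 or 6, or D. simulans and hybrid arrays 5 or 6. The highest, 12 of 88 members fitted, came without array 2 of the parental pair, where 13.4% of all passed. Without array 2 of D. melanogaster and hybrid the count was 11 of 91, against 13.8% of all. The cause was not tested. Replicate numbers share no RNA preparation beyond the pools and pair nothing. Of 686 recomputed parental differences of named members, 666 moved by less than 1 SD between arrays, 20 moved further, all under scaling, and 0 changed sign. Many of the 686 could not move. Leaving out an array with hybrid RNA or changing a limit of the rule leaves the parental values as they were. The same holds for the number of values asked for and for taking positions singly. The tally is therefore no measure of how steady these differences were. Leaving out single arrays gave 30 to 49 genes and positions in the rule that were higher in D. simulans and 46 to 53 that were lower. Settings added after seeing the data left out positions over 0.5 on an array with 1 RNA (78 members) or with 19 or 20 in the identifier (80 members). With 1 pool per strain, no setting bears on the spread between pools.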
